A study of Homo sapiens with 14 samples.

Results

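The genes described here had lower RNA in every SAP30-KO and every SIN3A+SIN3B-DKO library of MDA-MB-231 cells than in parental cells, but had not lost expression in the MLL1-KO libraries. They were chosen from the measured values: a mean of at least 2 TPM in the 2 parental libraries, at most 0.67 times that mean in each SAP30-KO and SIN3A+SIN3B-DKO library (4 of either genotype), and at least 0.8 times that mean in each of the 4 MLL1-KO libraries. TPM is a level corrected for gene length and scaled to the same total in each library, so it can be set side by side between genes. Of 19410 genes in the table, 11985 reached the parental minimum, 423 of these lay under 0.67 in all 8 SAP30-KO and SIN3A+SIN3B-DKO libraries, and 36 of the 423 (8.51%) also met the MLL1-KO limit. A further 296 of the 423 were at or under 0.67 in all 4 MLL1-KO libraries, and 91 lay between. Because the rule used all 14 libraries, every level of an edited line beside its parental level is a description, and no test of the members against parental cells is given.

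MDA-MB-231 is an established triple-negative breast cancer cell line of mesenchymal type. Untreated parental cells were compared by RNA-Seq with 6 lines made by CRISPR/Cas9 and puromycin selection: SAP30-KO1 and SAP30-KO2, SIN3A+SIN3B-DKO1 and SIN3A+SIN3B-DKO2 (both SIN3 genes edited), and MLL1-KO1 and MLL1-KO2, each with 2 libraries. Each edited line was a mixture of several single knockout clones, and all 6 were read against the same 2 parental libraries. Nothing in the labels says that the 2 libraries of a line came from separate cultures, so p-values measure only the spread between libraries. SAP30 is a subunit of the SIN3 histone deacetylase complex, in which SIN3A or SIN3B is the scaffold. The complex is best known for removing acetyl groups from histones and repressing genes, and it also occupies active promoters. MLL1 (the gene KMT2A, listed as MLL) is a histone methyltransferase known for marking active promoters, and the question behind the comparison was which genes the 3 factors keep active together.

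Libraries held from 18415036 to 23162682 reads in genes. In the libraries labelled SAP30-KO, SAP30 RNA was at 2.75 to 4.96 TPM, against 78.9 and 82.8 TPM in parental cells. SIN3B was at 43.5 to 50.2 TPM in SIN3A+SIN3B-DKO against 75.1 and 77.4 TPM, whereas SIN3A was at 55.1 to 62.5 TPM against 43.1 and 45.4 TPM, so RNA did not check the SIN3A edit. Of 5 mesenchymal markers, VIM, CD44, ZEB1 and AXL were well expressed in all 14 libraries and SPARC was at 0.155 to 0.902 TPM. Of the blood and endothelial markers, CD3E was at 0 in all libraries but 1 and PTPRC at 0.603 TPM or less. PECAM1 was at 1.62 and 1.86 TPM in parental cells, 2.69 to 3.97 TPM in SAP30-KO, 1.55 to 2.72 TPM in SIN3A+SIN3B-DKO and 2.85 to 3.25 TPM in MLL1-KO.

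Apart from the noncoding LINC00239, the 36 genes encode proteins of many kinds. These belong to the extracellular matrix and its receptors, the cytoskeleton, secreted growth regulators, membrane transport and lipid handling, and DNA repair, among others. Integrins and kindlins tie cells to matrix, actins and gelsolin shape the filament network behind that contact, and both systems are known from studies of migration of breast cancer cells. Zinc finger genes (4.01% of the 11985 expressed genes) held 0 members. Small nucleolar and micro RNA entries (2.445%) and ribosomal protein genes (0.642%) were among other families that also held 0. Of the other families counted by symbol, collagens, laminins and integrins held 2 members (ITGB4 and COL18A1), or 5.56% against 0.334% of expressed genes, and keratins held 1 (KRT7), or 2.78% against 0.075%. Genes named by number (TMEM, FAM, C-orf and KIAA) held 4 (C4orf32, C6orf141, C8orf42 and FAM83A), or 11.1% against 5.83%. Solute carriers (SLCO3A1), small GTPase regulators (RAP1GAP2) and noncoding or uncharacterized loci (LINC00239) held 1 each, against 1.74%, 1.12% and 2.10% of expressed genes. The counts are small and were not tested.

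Promoter sequences are shown for 4 members on which the results turn, one near 0 in both SAP30-KO and SIN3A+SIN3B-DKO (MFAP2), one with the highest ratio to parental in MLL1-KO (ACTG2), and a pair that separated lines of 1 genotype (S100A4 and TGFBI). Each is the 250 bases before the RefSeq start in GRCh38.p14, written along the gene's own strand. MFAP2 lies at chr1:16981584-16981833 on the minus strand, ACTG2 at chr2:73892758-73893007 on the plus strand, S100A4 at chr1:153545807-153546056 on the minus strand and TGFBI at chr5:136028738-136028987 on the plus strand. Capitals mark TGANTCA in MFAP2, TATAAA (the TATA box) in ACTG2 and S100A4, and GGGCGG (the GC box) in TGFBI. TGANTCA is the AP-1 motif TGA(C/G)TCA loosened to any middle base, so TGAGTCA in MFAP2 is an AP-1 match and TGATTCA is not. All were searched on both strands, so that ACTG2 and 2 of the TGFBI matches show the reverse complement.
MFAP2: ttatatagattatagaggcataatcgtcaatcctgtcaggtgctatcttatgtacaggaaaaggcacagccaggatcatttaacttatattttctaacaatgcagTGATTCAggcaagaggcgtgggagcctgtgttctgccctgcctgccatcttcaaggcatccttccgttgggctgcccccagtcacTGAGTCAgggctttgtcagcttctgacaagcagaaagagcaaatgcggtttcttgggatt
ACTG2: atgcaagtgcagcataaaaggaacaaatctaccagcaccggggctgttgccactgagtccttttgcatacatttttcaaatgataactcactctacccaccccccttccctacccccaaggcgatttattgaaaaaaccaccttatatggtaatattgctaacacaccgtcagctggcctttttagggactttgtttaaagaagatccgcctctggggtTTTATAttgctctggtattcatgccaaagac
S100A4: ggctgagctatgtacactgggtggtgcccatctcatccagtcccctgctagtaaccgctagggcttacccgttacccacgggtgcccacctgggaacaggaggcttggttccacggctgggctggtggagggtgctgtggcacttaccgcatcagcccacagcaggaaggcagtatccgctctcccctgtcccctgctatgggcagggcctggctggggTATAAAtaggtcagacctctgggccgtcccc
TGFBI: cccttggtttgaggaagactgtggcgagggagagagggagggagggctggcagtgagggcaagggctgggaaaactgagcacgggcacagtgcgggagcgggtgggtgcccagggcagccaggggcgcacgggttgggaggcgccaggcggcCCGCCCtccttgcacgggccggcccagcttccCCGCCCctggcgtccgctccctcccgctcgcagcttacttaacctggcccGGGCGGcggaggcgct
In MFAP2 the capitals began 145 and 60 bases before the start, in ACTG2 and S100A4 31 bases before it, and in TGFBI 98, 66 and 16 bases before it. TGANTCA was in 6.60% of the 27305 promoters of this length, TATAAA in 11.1% and GGGCGG in 42.3%, and a match describes letters only. Only 27 of the 36 members (75.0%) matched a promoter entry, so a comparison of base composition or motifs over the whole list is void. KRT7, LINC00239, ITGB4, FERMT1, APCDD1L, C8orf42, TNFRSF11B, FAM83A and SPANXE had no entry.

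Parental means ran from 2.05 TPM for LNX1 to 355 TPM for S100A4, with a median of 16.5 TPM. Read as a mean of ratios to parental over the 8 SAP30-KO and SIN3A+SIN3B-DKO libraries, 6 members were under 0.1, 18 lay from 0.1 to 0.5 and 12 were at 0.5 or above, with a median of 0.421. The heat map shows the depth of the loss as a gradient rather than as a common step. In the MLL1-KO libraries, 24 members were above both parental libraries in all 4 (23.6% of the 13540 genes tested were), and 8 were at 2 or more times the parental mean in all 4. Both MLL1-KO line means were above the parental mean for 27 members. The rule favours each of these counts. No share of all genes is given for the 8 and the 27, so they only describe the members. At least 1 of the line means was below the parental mean for S100A4, KRT7, EFNB2, GSN, LNX1, RAD51C, C4orf32, GFOD2 and TSPYL4. In bulk RNA from mixed lines, fewer cells expressing a gene and less RNA per cell cannot be told apart.

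**Figure D1:**
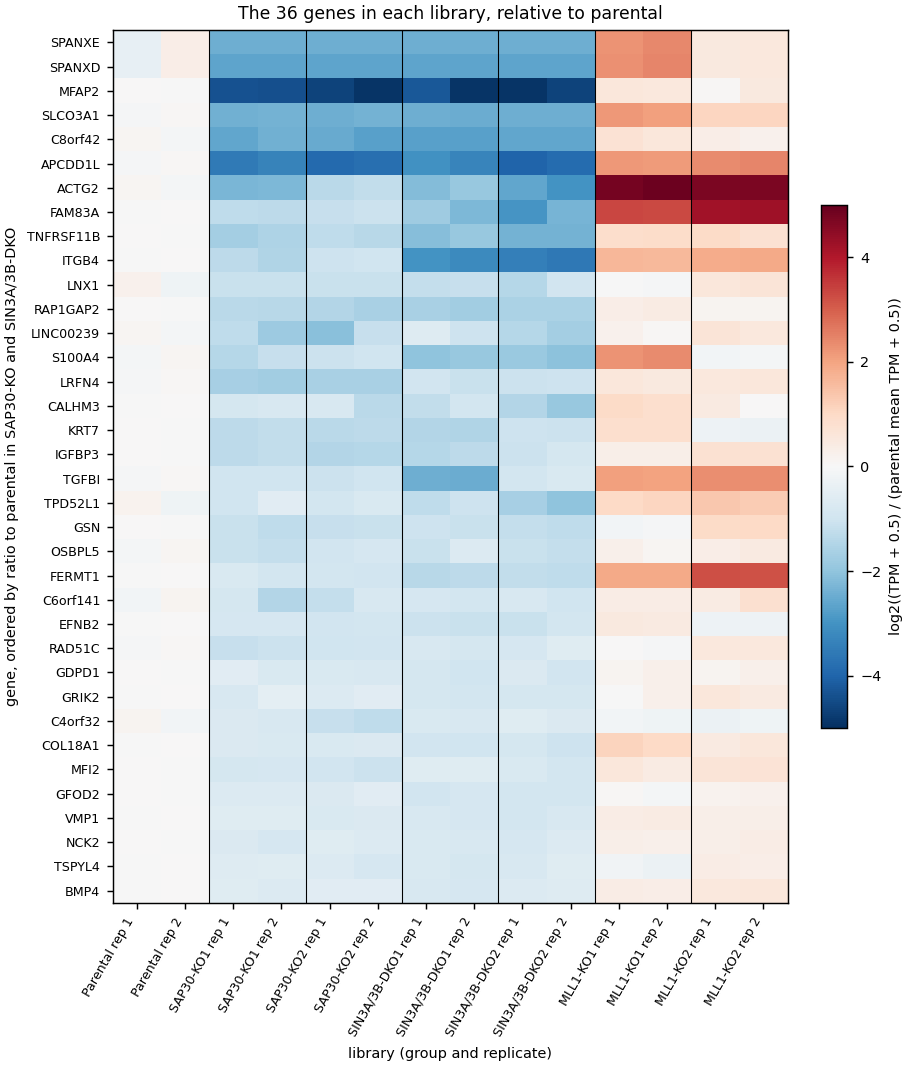
Rows are the 36 genes, ordered by their mean ratio to parental over the 8 SAP30-KO and SIN3A+SIN3B-DKO libraries, columns are the 14 libraries, and colour is log2 of (TPM + 0.5) over (parental mean TPM + 0.5), blue for lower and red for higher. The 8 middle columns are blue in every row, as the rule required, and ACTG2 and FAM83A carry the deepest red in MLL1-KO.

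The tests below used limma on log2(TPM + 0.5) over 13540 genes, with a call at a Benjamini-Hochberg adjusted p under 0.05 and a change of at least 1.5-fold. Against parental cells, 7.86% of genes tested were called lower in SAP30-KO1, 8.12% in SAP30-KO2, 8.66% in SIN3A+SIN3B-DKO1 and 7.56% in SIN3A+SIN3B-DKO2. In MLL1-KO1 16.3% were called lower and 6.89% higher, and in MLL1-KO2 14.9% and 10.2%. The rule chose the 36 members from levels in these same libraries, so the members are not counted in these contrasts. The contrasts serve for the subunits of the edited complexes. Of the 21 SIN3 complex subunits, SAP30 alone was lower in the SAP30-KO lines and SIN3B alone in the SIN3A+SIN3B-DKO lines, while SAP30L and ING2 were higher in MLL1-KO2 and 0 of the 21 were called in MLL1-KO1. Of the 15 MLL1 and COMPASS subunits, CXXC1 was called higher in all 6 lines, with log2 differences from 0.81 to 1.03. MLL was called lower in both MLL1-KO lines, with log2 differences of -1.64 and -0.97, and in both SAP30-KO lines, with -0.95 and -0.65. No subunit on these lists was among the 36.

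Among matrix and adhesion genes, MFAP2, a component of elastic microfibrils, was at 14.6 and 14.5 TPM in the 2 parental libraries and at 0 to 0.301 TPM in the 8 SAP30-KO and SIN3A+SIN3B-DKO libraries. The MLL1-KO1 libraries held 21.7 and 21.2 TPM and the MLL1-KO2 libraries 15.3 and 20.5 TPM. Counted as reads, MFAP2 had 119 and 123 in parental cells, 0 to 2 in SAP30-KO and 0 to 3 in SIN3A+SIN3B-DKO. Against a floor of 3 reads a library, it was at least 40.9-fold lower in SAP30-KO and 46.0-fold lower in SIN3A+SIN3B-DKO. The second value is no lower bound, as SIN3A+SIN3B-DKO1 replicate 1 held 3 reads itself. There was no overlap between these libraries and any other.

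ITGB4, the integrin subunit of hemidesmosomes that binds laminin, separated the groups in steps. It was at 59.9 and 61.2 TPM in parental cells, 23.9 and 20.9 TPM in SAP30-KO1, 29.5 and 30.4 TPM in SAP30-KO2, 7.13 and 6.18 TPM in SIN3A+SIN3B-DKO1, and 5.16 and 4.69 TPM in SIN3A+SIN3B-DKO2. The highest levels were 190.3 and 185.6 TPM for MLL1-KO1 with 221 and 224 TPM for MLL1-KO2. Every SIN3A+SIN3B-DKO library was below every SAP30-KO library, and every MLL1-KO library was above parental.

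TGFBI, a matrix protein induced by TGF-beta, was at 32.3 and 35.5 TPM in parental cells and between 15.9 and 16.96 TPM in the 4 SAP30-KO libraries. In SIN3A+SIN3B-DKO1 it was at 5.83 and 5.72 TPM, whereas SIN3A+SIN3B-DKO2 had 17.7 and 19.8 TPM, so the lower level was found in 1 of the 2 lines. The MLL1-KO1 libraries held 142 and 137 TPM and the MLL1-KO2 libraries 170.1 and 173 TPM. COL18A1, the collagen that gives rise to endostatin, went from 37.7 and 37.8 TPM in parental cells to 22.1 to 22.8 TPM in SAP30-KO and 18.2 to 20.1 TPM in SIN3A+SIN3B-DKO, and was at 52.2 to 81.6 TPM in MLL1-KO. Its exons share 18.5% of their length with SLC19A1 on the other strand, and whether strand was used in counting is not given in the sources used here.

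FERMT1 encodes kindlin-1, which activates integrins. Its levels were 17.1 and 17.2 TPM in parental cells, 8.53 to 9.96 TPM in SAP30-KO and 6.33 to 6.99 TPM in SIN3A+SIN3B-DKO. MLL1-KO1 reached 64.7 and 64.3 TPM, MLL1-KO2 164 and 159 TPM, so both lines were above parental and the second was the higher.

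Of the cytoskeletal genes, ACTG2, the smooth muscle gamma actin, had the highest ratio to parental in MLL1-KO among the 36. It was at 10.7 and 9.44 TPM in parental cells, 1.67 and 1.74 TPM in SAP30-KO1, 3.69 and 3.94 TPM in SAP30-KO2, 1.86 and 2.32 TPM in SIN3A+SIN3B-DKO1 and 1.25 and 0.82 TPM in SIN3A+SIN3B-DKO2. The MLL1-KO libraries held 291 and 313 TPM in MLL1-KO1 and 278.2 and 277.6 TPM in MLL1-KO2, 28.8 times the parental mean. Actin genes are close in sequence, and how reads matching several of them were counted is not given in the sources used here.

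KRT7, a simple-epithelium keratin, was at 273 and 269 TPM in parental cells, 105 to 114 TPM in SAP30-KO and 95.4 to 133.7 TPM in SIN3A+SIN3B-DKO. It was above parental in MLL1-KO1, with 483 and 489.7 TPM, and below it in MLL1-KO2, with 229 and 221 TPM. The luminal keratins KRT8 and KRT18, which are not members, were below parental in all 12 edited libraries, from 411.7 and 419 TPM to 105.0 to 305 TPM and from 746 and 777 TPM to 363 to 551 TPM. Of the 7 luminal and epithelial markers, 5 were tested, and 5 were called lower in either SAP30-KO line, 4 and 3 in the SIN3A+SIN3B-DKO lines and 4 in either MLL1-KO line. Their summed level was 1221 to 1257 TPM in parental cells, 674 to 697 TPM in SAP30-KO, 802 to 880.3 TPM in SIN3A+SIN3B-DKO and 502 to 783 TPM in MLL1-KO, with ESR1 and PGR near 0 in all libraries, and its part in the levels of KRT7 was not tested. GSN, or gelsolin, which severs actin filaments, moved the other way from KRT7 between the MLL1-KO lines. It was at 68.6 and 66.0 TPM in parental cells, 27.5 to 30.8 TPM in SAP30-KO and 27.4 to 32.3 TPM in SIN3A+SIN3B-DKO, then at 60.4 and 64.6 TPM in MLL1-KO1 and 130.2 and 135 TPM in MLL1-KO2.

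S100A4, a calcium-binding protein known for its association with metastasis, had the highest parental level, at 332 and 377 TPM. SAP30-KO1 held 133 and 159.8 TPM and SAP30-KO2 170.4 and 179.6 TPM, and the 4 SIN3A+SIN3B-DKO libraries, at 85.8 to 98.8 TPM, lay below all of these. MLL1-KO1 held 1683 and 1808 TPM, while MLL1-KO2, at 321 and 330.2 TPM, was just under the parental libraries. NCK2, an SH2 and SH3 adaptor that links receptors to actin, was at 28.5 and 27.6 TPM in parental cells, 15.4 to 18.3 TPM in SAP30-KO and SIN3A+SIN3B-DKO and 33.5 to 36.3 TPM in MLL1-KO.

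**Figure D2:**
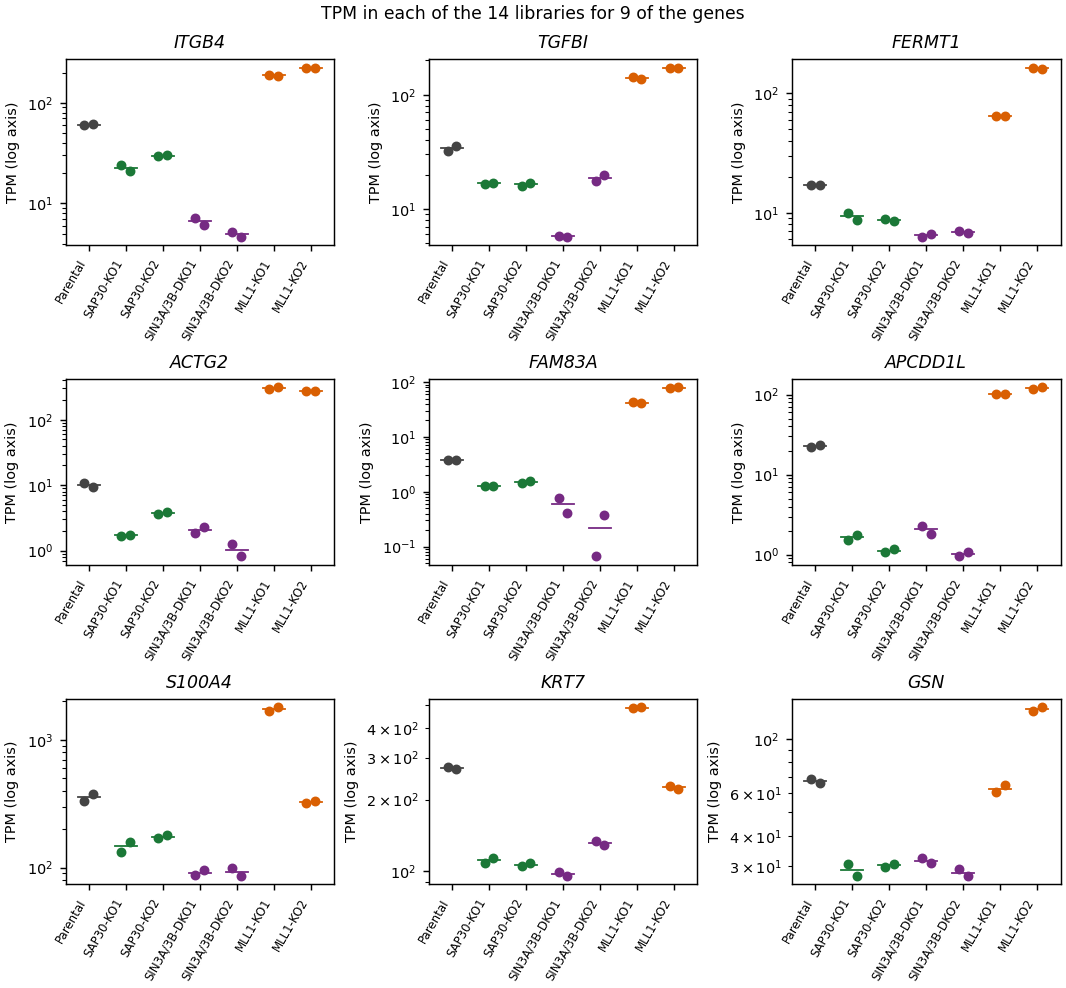
Each point is the TPM of 1 library on a log axis and each bar the mean of the 2 libraries of a group, for 9 of the 36 genes. ITGB4 falls in steps from parental to SAP30-KO to SIN3A+SIN3B-DKO, TGFBI differs between the SIN3A+SIN3B-DKO lines, and S100A4, KRT7 and GSN differ between the MLL1-KO lines.

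The secreted regulators and receptors ran from a mean ratio of 0.0648 (APCDD1L) to 0.624 (BMP4) over the 8 libraries. BMP4, a ligand of the bone morphogenetic protein pathway, was at 240.4 and 249.3 TPM in parental cells, 152 to 164 TPM in SAP30-KO, 135 to 155 TPM in SIN3A+SIN3B-DKO and 312 to 361 TPM in MLL1-KO. It was the member nearest the upper limit, with a highest ratio of 0.6698, followed by GRIK2 at 0.6676, and the nearest genes outside were CDKN1C at 0.6713 and PDDC1 at 0.6786. IGFBP3, which binds insulin-like growth factors, was at 105 and 102 TPM in parental cells, 37.3 to 55.9 TPM in the 8 lowered libraries, 126.7 and 126.5 TPM in MLL1-KO1 and 174 and 173.8 TPM in MLL1-KO2. TNFRSF11B, or osteoprotegerin, a decoy receptor that holds back osteoclast formation, was at 10.9 and 10.6 TPM in parental cells, 2.96 to 4.13 TPM in SAP30-KO, 1.67 to 2.53 TPM in SIN3A+SIN3B-DKO and 18.6 to 21.1 TPM in MLL1-KO. The SIN3A+SIN3B-DKO libraries of TNFRSF11B all lay below those of SAP30-KO. EFNB2, the ephrin ligand of arterial endothelium, was at 67.6 and 68.8 TPM in parental cells and 31.2 to 38.2 TPM in the 8 lowered libraries, and the MLL1-KO lines fell on either side of parental, at 95.2 and 92.8 TPM in MLL1-KO1 and 57.9 and 57.1 TPM in MLL1-KO2.

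APCDD1L was among the 6 members under 0.1 of parental. It was at 21.9 and 23.4 TPM in parental cells and 0.954 to 2.31 TPM in the 8 lowered libraries, while MLL1-KO1 held 103 and 102 TPM, MLL1-KO2 118 and 124 TPM. APCDD1L-AS1, listed as its antisense RNA and not a member because its parental mean was 1.78 TPM, was at 0.0567 to 0.353 TPM in the 8 libraries and 15.6 to 19.4 TPM in MLL1-KO. The 2 genes lie on opposite strands, and 0.5% of the exon length of APCDD1L is shared.

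Among signalling genes, FAM83A, a scaffold of epidermal growth factor receptor signalling, had the next highest ratio to parental in MLL1-KO after ACTG2, 15.9. It was at 3.77 and 3.87 TPM in parental cells, 1.26 to 1.57 TPM in SAP30-KO, 0.756 and 0.414 TPM in SIN3A+SIN3B-DKO1, and 0.0663 and 0.373 TPM in SIN3A+SIN3B-DKO2, the last being 2 and 11 reads. MLL1-KO1 held 42.7 and 41.7 TPM and MLL1-KO2 78.2 and 80.4 TPM. TPD52L1, a member of the tumor protein D52 family, was at 7.85 and 5.96 TPM in parental cells, 3.24 to 4.51 TPM in SAP30-KO, 2.60 and 3.11 TPM in SIN3A+SIN3B-DKO1, 1.82 and 1.34 TPM in SIN3A+SIN3B-DKO2 and 14.3 to 18.2 TPM in MLL1-KO. RAP1GAP2, which turns off the small GTPase RAP1, was at 18.0 and 17.6 TPM in parental cells, 5.04 to 6.76 TPM in the 8 lowered libraries and 19.5 to 24.1 TPM in MLL1-KO. LNX1, a ubiquitin ligase that targets NUMB, had the lowest parental mean and uneven parental libraries, at 2.42 and 1.67 TPM. It was at 0.441 to 0.796 TPM in the 8 lowered libraries, 1.99 and 1.92 TPM in MLL1-KO1 and 3.24 and 3.46 TPM in MLL1-KO2. LNX1 shares 33.8% of its exon length with FIP1L1 on the other strand, the largest such share among the 7 members that overlap exons of another listed gene.

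Membrane transport and lipid genes included another near-complete loss. SLCO3A1, an organic anion transporter, was at 2.20 and 2.40 TPM in parental cells, 0 to 0.0448 TPM in the 8 lowered libraries, 12.2 and 11.2 TPM in MLL1-KO1 and 5.33 and 5.34 TPM in MLL1-KO2. In reads it had 91 and 97 in parental cells, 1 to 2 in SAP30-KO and 0 to 1 in SIN3A+SIN3B-DKO, which makes it at least 31.8-fold and at least 35.8-fold lower against the floor of 3 reads a library. OSBPL5, an oxysterol-binding protein relative that moves lipids between membranes, was at 6.30 and 7.42 TPM in parental cells, 2.72 to 4.10 TPM in the 8 libraries and 7.27 to 9.42 TPM in MLL1-KO. LRFN4, a synaptic adhesion protein, was lower in SAP30-KO than in SIN3A+SIN3B-DKO, as was the median of its neighbours on the chromosome. It was at 27.1 and 29.3 TPM in parental cells, 8.11 to 8.76 TPM in SAP30-KO, 12.8 to 14.3 TPM in SIN3A+SIN3B-DKO and 40.0 to 42.4 TPM in MLL1-KO, and it shares 20.1% of its exon length with PC on the other strand.

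CALHM3, a subunit of a voltage-gated channel of taste cells, was at 4.29 and 4.32 TPM in parental cells, 0.808 to 2.26 TPM in the 8 libraries, 8.84 and 8.22 TPM in MLL1-KO1 and 5.99 and 4.38 TPM in MLL1-KO2. GRIK2, a kainate-type glutamate receptor subunit, was at 3.56 and 3.59 TPM in parental cells, 1.67 to 2.39 TPM in the 8 libraries and 3.54 to 5.59 TPM in MLL1-KO. MFI2 (now MELTF), melanotransferrin, an iron-binding surface protein, was at 23.7 and 22.7 TPM in parental cells, 10.7 to 15.3 TPM in the 8 libraries and 30.7 to 37.2 TPM in MLL1-KO. In these 3 genes SAP30-KO and SIN3A+SIN3B-DKO were not called different from each other.

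SPANXD and SPANXE belong to a family of cancer-testis genes on chromosome X with near-identical copies. Both had the same read count in every library, 5 and 9 reads in parental cells, 0 in all 8 lowered libraries, then 45 and 50 for MLL1-KO1 with 10 and 11 for MLL1-KO2, so they are uncertain as separate genes and may be 1 source. Against the floor of 3 reads a library, SPANXD was at least 2.37-fold lower in SAP30-KO and at least 2.67-fold lower in SIN3A+SIN3B-DKO. These values take the parental level at its mean and leave out the counting error of 5 and 9 reads. C8orf42 (now TDRP), named for testis development, was at 2.97 and 2.59 TPM in parental cells, 0 to 0.113 TPM in the 8 libraries and 3.29 to 4.95 TPM in MLL1-KO. It had 62 and 73 reads in parental cells, 0 to 3 in SAP30-KO and 0 to 1 in SIN3A+SIN3B-DKO. Against the floor, it was 22.8-fold lower in SAP30-KO and at least 25.7-fold lower in SIN3A+SIN3B-DKO. The first value is no lower bound, as SAP30-KO1 replicate 2 held 3 reads itself.

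The other members have housekeeping or little-known roles. RAD51C, which acts in homologous recombination, was at 36.8 and 39.0 TPM in parental cells, 16.6 to 24.5 TPM in the 8 libraries, 38.2 and 36.6 TPM in MLL1-KO1 and 55.0 and 55.2 TPM in MLL1-KO2. VMP1, a membrane protein of autophagosome formation, was at 149.8 and 155 TPM in parental cells, 79.7 to 99.7 TPM in the 8 libraries and 184 to 204 TPM in MLL1-KO. GDPD1, a lysophospholipase D, was at 4.37 and 4.20 TPM, 1.89 to 2.72 TPM and 4.70 to 5.17 TPM in the same order. GFOD2, TSPYL4, C4orf32 (now FAM241A) and C6orf141 are less well characterized. Among these, TSPYL4 was nearest the lower MLL1-KO limit, with a lowest ratio of 0.814, next to KRT7 at 0.815, and MIR5047 lay just outside at 0.793. Parental levels of TSPYL4 were 15.8 and 16.1 TPM, of GFOD2 12.2 and 11.5 TPM, of C4orf32 19.9 and 16.7 TPM and of C6orf141 5.17 and 6.23 TPM. In the 8 libraries they were at 8.46 to 10.4, 5.94 to 7.79, 7.25 to 11.9 and 1.75 to 3.08 TPM, and C4orf32 alone of the 36 stayed under its parental libraries in all 4 MLL1-KO libraries, at 15.0 to 16.4 TPM. LINC00239, the single long noncoding RNA, was at 5.20 and 4.45 TPM in parental cells, 0.746 to 2.93 TPM in the 8 libraries and 5.04 to 7.82 TPM in MLL1-KO. The lowest parental means inside the rule were those of LNX1 at 2.05 TPM and SPANXE at 2.25 TPM, and the nearest outside were KLRC3 at 1.91 TPM and APCDD1L-AS1.

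The rule sets the same limit on SAP30-KO and SIN3A+SIN3B-DKO, and no order between them. It chose the members from levels in these same libraries, and the p-values do not allow for that choice. Shares of members called beside shares of all genes therefore only describe the members. Of the 36 members, 8 were called (22.2%, against 7.47% of all genes tested), 7 higher in SAP30-KO (4.22% of genes tested) and 1 lower (3.25%). Members lower in SIN3A+SIN3B-DKO were the adhesion and matrix genes ITGB4 and TGFBI, the metastasis-associated S100A4, TNFRSF11B, FAM83A, ACTG2 and TPD52L1. ITGB4 showed the greatest difference, 4.24-fold higher in SAP30-KO (log2 difference 2.08 ± 0.05, SE, limma adjusted p = 1.01e-09). FAM83A was 2.17-fold higher (log2 difference 1.12 ± 0.13, SE, limma adjusted p = 4.85e-05) and S100A4 1.74-fold higher (0.80 ± 0.07, SE, limma adjusted p = 3.28e-06). TNFRSF11B was 1.65-fold, TPD52L1 1.60-fold, and ACTG2 and TGFBI each 1.56-fold higher in SAP30-KO. ACTG2 and TPD52L1 stood near the fold minimum. The ACTG2 mean was 1.71 TPM in SAP30-KO1, below the 2.09 TPM of SIN3A+SIN3B-DKO1. It was 3.82 TPM in SAP30-KO2 and 1.03 TPM in SIN3A+SIN3B-DKO2. TGFBI took its difference from SIN3A+SIN3B-DKO1 alone, as the SIN3A+SIN3B-DKO2 level was above that of SAP30-KO. LRFN4 was 1.54-fold lower in SAP30-KO (log2 difference -0.63 ± 0.05, SE, limma adjusted p = 1.63e-06). The median of the 51 expressed genes centred on LRFN4 was -0.43 and -0.34 against parental in the SAP30-KO lines and 0.20 and 0.04 in the SIN3A+SIN3B-DKO lines, and with that median subtracted LRFN4 differed by -0.12 and was not called (limma adjusted p = 0.0823). The same subtraction took TGFBI under the fold minimum, at 0.54. All 4 SIN3A+SIN3B-DKO libraries were below all 4 SAP30-KO libraries for 10 members (19% of genes tested), and the reverse held for 2 (16.6%). The ACTG2 call was lost without SIN3A+SIN3B-DKO1 replicate 1 or SIN3A+SIN3B-DKO2 replicate 2, and the TPD52L1 call without SAP30-KO1 replicate 2, in each case on the fold minimum.

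**Figure D3:**
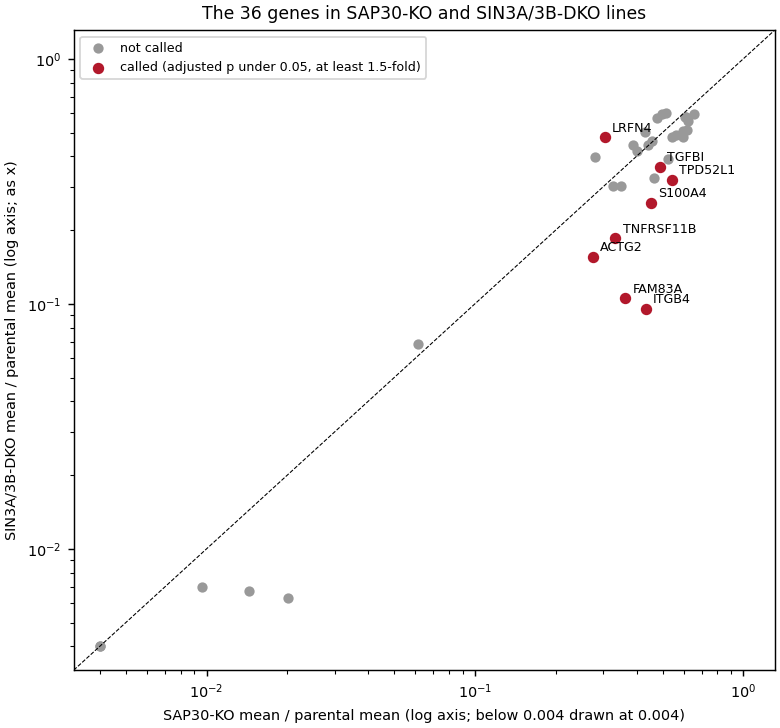
Each point is 1 of the 36 genes, with its mean over the 4 SAP30-KO libraries divided by the parental mean on the x axis and the same for the 4 SIN3A+SIN3B-DKO libraries on the y axis, both log. The dashed line marks equal ratios, red points are the 8 genes called different, and ITGB4 and FAM83A lie farthest below the line among these. SPANXD and SPANXE, at 0 on both axes, are drawn in the lower left corner.

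The 2 lines of each genotype were then compared. The rule sets no order between them, but it limits the level in each of their libraries. Shares of members called beside shares of all genes are again only a description, and the p-values do not allow for that choice. Between SAP30-KO1 and SAP30-KO2, 1 of 36 members was called (0.148% of genes tested), ACTG2, 1.95-fold lower in SAP30-KO1 (log2 difference -0.97 ± 0.13, SE, limma adjusted p = 0.0129). That call was lost when any 1 of the 4 SAP30-KO libraries was left out, with adjusted p from 0.0819 to 0.111. Between the SIN3A+SIN3B-DKO lines, 4 were called (2.23% of genes tested): TGFBI was 3.06-fold lower in SIN3A+SIN3B-DKO1 (log2 difference -1.61 ± 0.06, SE, limma adjusted p = 9.77e-08), and ACTG2, APCDD1L and TPD52L1 were 1.70-fold, 1.68-fold and 1.62-fold higher there. The TPD52L1 call was lost without SIN3A+SIN3B-DKO1 replicate 1 (limma adjusted p = 0.064), SIN3A+SIN3B-DKO1 replicate 2 (0.163) or SIN3A+SIN3B-DKO2 replicate 2 (0.175), and the ACTG2 call without SIN3A+SIN3B-DKO2 replicate 2, where the difference fell under the fold minimum. The replicates of SIN3A+SIN3B-DKO2 were the most unlike each other of the 7 groups, with 8.003 as the chi-square of their reads over genes divided by its degrees of freedom, against 1.47 to 3.77 in the others.

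The MLL1-KO lines differed on more of the 36 genes. The MLL1-KO limit is only a lower one, so genes lowered in 1 line were left out and genes raised in 1 line were kept. Between MLL1-KO1 and MLL1-KO2, 11 members were called (30.6%, against 10.4% of genes tested), 7 higher in MLL1-KO1 (3.27%) and 4 lower (7.15%). S100A4 was 5.35-fold higher in MLL1-KO1 (log2 difference 2.42 ± 0.09, SE, limma adjusted p = 2.74e-08), KRT7 2.16-fold higher (1.11 ± 0.04, SE, adjusted p = 7.35e-09) and EFNB2 1.63-fold higher (limma adjusted p = 1.99e-06). SLCO3A1 was 2.08-fold higher and CALHM3 1.60-fold higher in MLL1-KO1, and SPANXD and SPANXE, from the same reads, were 3.57-fold and 3.53-fold higher on the log2(TPM + 0.5) scale. The 4 genes that were lower in MLL1-KO1 were FERMT1, 2.49-fold (log2 difference -1.32 ± 0.06, SE, limma adjusted p = 9.29e-08), GSN, 2.11-fold (-1.08 ± 0.06, SE, adjusted p = 2.87e-07), FAM83A, 1.87-fold, and LNX1, 1.57-fold. The CALHM3 call was lost without MLL1-KO1 replicate 1 (limma adjusted p = 0.095), MLL1-KO1 replicate 2 (0.0596) or MLL1-KO2 replicate 2 (0.158) and with only the libraries compared (0.0517), and the LNX1 call without any 1 of the 4 MLL1-KO libraries (0.0525 to 0.0839). With the median of its neighbours subtracted, LNX1 differed by -0.17 (limma adjusted p = 0.436). MLL RNA itself was less reduced in MLL1-KO2 than in MLL1-KO1, by the log2 differences given above, and its part in these differences was not tested. ITGB4, TGFBI, ACTG2, APCDD1L, TNFRSF11B and TPD52L1 were at 1.73 or more times the parental mean in all 4 MLL1-KO libraries and were not called different between the lines.

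**Figure D4:**
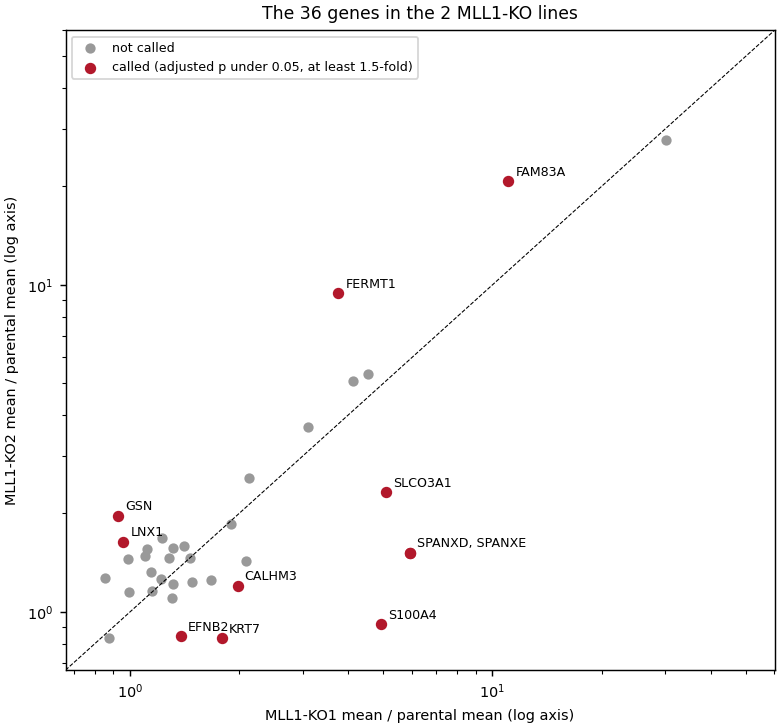
Each point is 1 of the 36 genes, with the MLL1-KO1 mean divided by the parental mean on the x axis and the MLL1-KO2 mean divided by the parental mean on the y axis, both log, and the dashed line marks equal ratios. Of the 11 genes called different (red), S100A4, KRT7 and EFNB2 lie right of the line and under 1 in MLL1-KO2, while FERMT1, FAM83A, GSN and LNX1 lie above it.

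The members were spread over 20 chromosomes, and 1 group of neighbours stood out. RAD51C (chr17:56769934-56812972), GDPD1 (chr17:57297828-57353331) and VMP1 (chr17:57784553-57919616), all on the plus strand in GRCh37 (GENCODE release 44), lay within 1.15 Mb, with 0.485 and 0.431 Mb between them. The other pairs of positioned members on 1 chromosome were at least 4.23 Mb apart, with SPANXE, which has no position, left out. Between RAD51C and VMP1 lie 10 other expressed genes, which the rule left out. TRIM37 came nearest to the limit of 0.67, with a highest ratio of 0.687 among the 8 libraries. The ratios of the 10 to parental had a median of 0.802 in SAP30-KO (0.587 to 1.87), 0.766 in SIN3A+SIN3B-DKO (0.514 to 1.24) and 1.41 in MLL1-KO, and the ratios of the 3 members were 0.476 to 0.624, 0.489 to 0.574 and 1.16 to 1.27. MIR21, an entry of 72 bases within the exons of VMP1, was at 4.91 TPM in parental cells, a level that few reads give at that length. Its ratios of 0.977 in SAP30-KO and 0.514 in SIN3A+SIN3B-DKO, with 2.42 in its highest single library of the 8, are therefore uncertain. The 0.514 was also the lowest of the 10 in SIN3A+SIN3B-DKO.

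The median log2 difference of the 51 expressed genes centred on VMP1 was -0.40, -0.40, -0.48 and -0.44 in SAP30-KO1, SAP30-KO2, SIN3A+SIN3B-DKO1 and SIN3A+SIN3B-DKO2. VMP1 itself was at -0.61, -0.74, -0.83 and -0.86, so -0.21 to -0.42 was left once its neighbours' median was taken off. With the median of neighbours subtracted from every gene, 26 of the 36 still met the rule. EFNB2, GFOD2, RAD51C, GDPD1, VMP1, LNX1, C4orf32, TSPYL4 and TPD52L1 did not, and SPANXE had no position. A gene could also fail on the parental minimum or the MLL1-KO limit. After subtraction LNX1 was still at -1.04 to -1.13 in the SAP30-KO and SIN3A+SIN3B-DKO lines, and C4orf32 was at -0.43 in MLL1-KO2. The copy number of these regions in the edited lines was not tested.

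**Figure D5:**
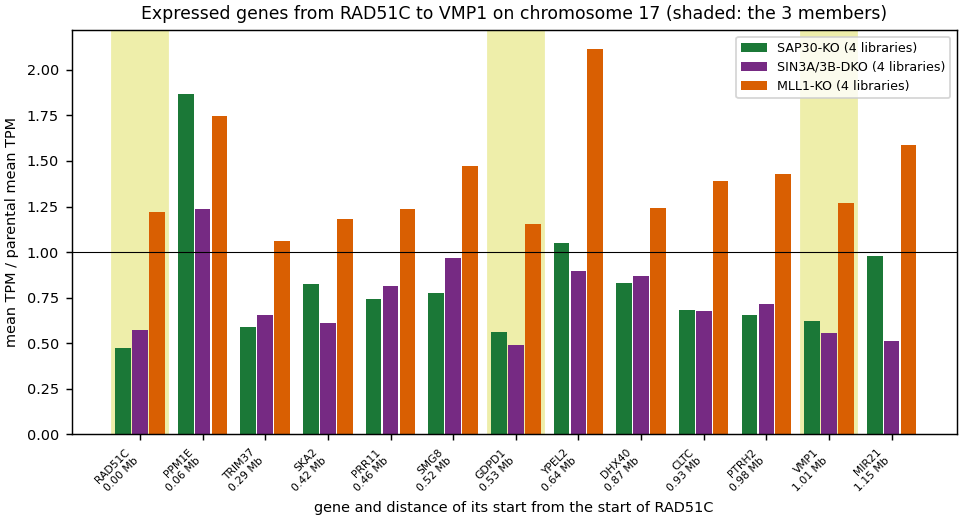
Bars give the mean TPM of 4 libraries divided by the parental mean for the 13 expressed genes from RAD51C to VMP1, in SAP30-KO, SIN3A+SIN3B-DKO and MLL1-KO, with the distance of each gene's start from the start of RAD51C in Mb under its name. The 3 members (shaded) have SAP30-KO and SIN3A+SIN3B-DKO bars of 0.476 to 0.624, most of the other genes have higher ones, and all 13 genes are above 1 in MLL1-KO.

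Set beside the 296 genes that were lowered in MLL1-KO as well, the 36 had a higher median parental level (16.5 against 9.91 TPM) and higher median ratios in SAP30-KO (0.447 against 0.317) and SIN3A+SIN3B-DKO (0.409 against 0.289), values that the rule shaped and that were not tested. Their median ratio in MLL1-KO was 1.45, against 0.184 for the 296. PDGFB, an angiogenic growth factor that the study followed, met both ratio limits but not the parental minimum. It was at 1.62 and 1.83 TPM in parental cells, 0.0711 to 0.381 TPM in the 8 lowered libraries and 1.68 to 3.15 TPM in MLL1-KO. The 5 other angiogenesis and migration genes the study followed (PDGFD, CLDN1, RDX, ADM2 and NOTCH3) were called lower in all 6 lines and none was among the 36, and the study had chosen that list with these samples in view.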

How the data were processed

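RNA of untreated parental MDA-MB-231 cells and 6 edited lines was sequenced from KAPA mRNA HyperPrep libraries, 2 for each of 7 groups taken from the labels. The submitters' processing notes name FastQC 0.11.2, TopHat, featureCounts and hg19; the annotation is not given in the sources used here. The authors deposited 1 table named RPKM, but its values are TPM, since every library summed to 1000000. The spacing of the values gave back whole reads for 100.0% of 18519 genes (tolerance 0.02). No value column was left unmapped, and 28 names had been turned into dates.

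Members and lists were chosen with earlier results of these data known. Genes with at least 1 TPM in at least 2 libraries (13540, with all 36 members) were fitted with limma 3.58.1 in R 4.3.3 on log2(TPM + 0.5), as planned for RPKM, with 7 group means, a variance trend, and 7 residual and 3.58 prior degrees of freedom; the fit was tested on simulated data. TPM does not show a change of total RNA. Differences on the log2(TPM + 0.5) scale understate changes of low genes. The floors put 3 reads in the lowered libraries and keep the parental level at its mean. The bounds leave out counting error in the parental reads and any spread between cultures. Where up to 3 reads were seen, 3 reads is no upper limit on the level.

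The naming rule took the 10 members with the highest parental mean, the 10 lowest over SAP30-KO and SIN3A+SIN3B-DKO, the 10 highest in MLL1-KO, the 5 with the lowest adjusted p in each direct comparison, and the 2 genes either side of each limit (some genes are not reported here); the other members were named so that all 36 are accounted for. Replicate numbers 1 and 2 carry no stated pairing. Positions are from GENCODE release 44 on GRCh37 (35 of 36 members) and promoters from RefSeq. Python 3.11.15, pandas 2.3.3, numpy 2.4.6 and matplotlib 3.10.9 were used.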

Additional observations from a re-analysis of the deposited data

Results flagged for a closer look

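The members whose level differed between the 2 lines of 1 genotype, by the test of that difference (limma, adjusted p under 0.05 and at least 1.5-fold), are listed here with log2 differences, first line minus second. Between SAP30-KO1 and SAP30-KO2, ACTG2 differed by -0.97. Between SIN3A+SIN3B-DKO1 and SIN3A+SIN3B-DKO2, TGFBI differed by -1.61, ACTG2 by 0.76, APCDD1L by 0.75 and TPD52L1 by 0.69. The ACTG2 calls were not stable. The first was lost without any 1 of the 4 SAP30-KO libraries. Both were lost with voom (limma adjusted p = 0.0768 and 0.063) and with only the libraries compared (0.265 and 0.196). The second was also lost without SIN3A+SIN3B-DKO2 replicate 2, and TPD52L1 and APCDD1L were not called with only the libraries compared (0.184 and 0.146).

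Between MLL1-KO1 and MLL1-KO2, S100A4 differed by 2.42, SPANXD by 1.84, SPANXE by 1.82, KRT7 by 1.11, SLCO3A1 by 1.06, EFNB2 by 0.70 and CALHM3 by 0.68, all higher in MLL1-KO1. FERMT1 differed by -1.32, GSN by -1.08, FAM83A by -0.90 and LNX1 by -0.65, all higher in MLL1-KO2. SPANXD and SPANXE rest on the same reads. No cause of these line differences was tested.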

How the results depend on the processing

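The rule gave 13 members with 0.5 in place of 0.67 and 26 with 1.0 in place of 0.8 for MLL1-KO, 45 and 26 with parental minima of 1 and 5, 45 after quantile normalization, 47 after median ratio scaling, and 34 and 35 with a single parental library as the reference. Leaving out each library in turn gave 34 to 41. With neighbours' medians subtracted 35 genes passed, 26 of them members.

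Without a fold minimum, the members called were 2 between the SAP30-KO lines, 8 between the SIN3A+SIN3B-DKO lines, 20 between the MLL1-KO lines and 21 between SAP30-KO and SIN3A+SIN3B-DKO, and with a 2-fold minimum 0, 1, 7 and 2. With only the libraries compared, the numbers for the SAP30-KO and SIN3A+SIN3B-DKO lines were 0 and 1. With voom on recovered reads, an alternative added after seeing the data, the SAP30-KO lines gave 0 (ACTG2 adjusted p = 0.0768). Leaving out 1 library gave 0 for the SAP30-KO lines, 3 to 5 for the SIN3A+SIN3B-DKO lines, 10 to 11 for the MLL1-KO lines and 7 to 9 for SAP30-KO against SIN3A+SIN3B-DKO. No call reversed, and of the called members 0 of 1, 1 of 4, 8 of 11 and 4 of 8 were called under every alternative run for each gene, all of which kept the 1.5-fold minimum. FAM83A was not called between the MLL1-KO lines with a pseudocount of 0.1 (limma adjusted p = 0.0788). Quantile normalization moved the genes called between the MLL1-KO lines from 968 lower and 443 higher in MLL1-KO1 to 705 and 560. The cause of these changes was not tested.

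Under a replicate block the 4 comparisons gave 1, 4, 11 and 8 members, as without it. Same-numbered libraries share only a number: their deviations from group means correlated at 0.015 on average over 21 pairs of groups, from -0.073 to 0.082.

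The limits are few reads for SPANXD, SPANXE, MFAP2, SLCO3A1 and C8orf42 in the lowered libraries, and 2 libraries a group.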
